A study of Mus musculus with 7 samples.

Results

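The cytosolic ribosomal protein genes were examined in microglia-enriched RNA from the dorsal hippocampus of C57BL/6 mice aged 6 to 8 weeks. Members were the protein-coding genes whose symbol is that of a ribosomal protein (Rps or Rpl and a number, Rplp0 to Rplp2, or Rpsa), with the Rps6 kinases left out, that had 10 or more counts in every library. Of the 83 genes with such a symbol, 81 qualified, out of 55401 genes in the deposited table. They comprised 31 genes of the small subunit, 43 of the large subunit, the 3 stalk genes and 4 paralogs (copies of a ribosomal protein gene with a locus of their own).

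All mice had received AAV-RAM-Cre by injection into the dorsal part of the dentate gyrus, where the RAM promoter drives Cre in recently active neurons. The series is labelled as adult male mice. In the EYFP group (4 libraries, titled EYFP, genotype control) AAV-Dio-EYFP was the Cre-dependent virus, and in the ATG7 group (3 libraries, genotype ATG7 overexpression) it was AAV-Dio-Atg7-Flag, which directs the autophagy enzyme Atg7 to those neurons. Both groups thus share the injection and RAM-Cre. Cells were collected with CD11b beads, so the sequenced cells are not the ones in which the virus was meant to act. The comparison asks how mRNA levels in microglia differ when these neurons overexpress Atg7.

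The ribosome is built from a small subunit, which reads the mRNA, and a large subunit, which joins amino acids. Most of its proteins are needed in about equal numbers, and ribosomal protein mRNAs are among the most abundant in growing cells. These mRNAs characteristically begin with a terminal oligopyrimidine (TOP) tract, a C followed by C and T bases, through which mTORC1 and the RNA-binding protein Larp1 set how much of them is translated and stored. In microglia, as in other macrophages, ribosomal protein mRNA is commonly followed as a sign of growth and biosynthesis.

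Total counts ran from 35934210 to 55217119 per library, and the 81 genes took from 546329 to 991107 of them. Values below are library-size normalised read counts (CPM) after TMM scaling (trimmed mean of M values), unless a scale is named, and ± is the SD over the 4 EYFP or 3 ATG7 libraries, except after a log2 fold change, where it is the standard error (SE). The labels do not say whether the libraries of a group came from separate mice, so p-values measure the spread between these libraries. The 10 microglia markers summed to between 22298 and 27134 CPM in EYFP and between 22098 and 27255 CPM in ATG7. The choroid plexus list was also abundant, at 55394 to 73062 CPM in EYFP and 46965 to 61820 CPM in ATG7, with all 10 of its genes detected. EYFP 3 went against the male label of the series, with Xist at 938.5 CPM against 0.151 to 0.574 CPM in the other libraries. Its Y-linked Ddx3y and Kdm5d were lower than elsewhere but present, at 27.6 CPM (others 121.1 to 168.7) and 8.09 CPM (others 37.9 to 48.4). Results are therefore also given without it. Because these are bulk samples, fewer cells of a type and less RNA per cell cannot be told apart.

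Sequences around the start site are shown for some of the genes at both ends of the range of differences, and for Rpl10a and Rps6. The TOP tract is the feature these mRNAs are known to share. They are RefSeq sequences of GRCm38.p6, from 60 bases before to 15 bases from the start, 5′ to 3′ on the gene's strand. Capitals mark the pyrimidine tract nearest the start (a C and at least 4 further C or T bases, beginning within 15 bases of it) and any CTCGCGAG word. Rpl12, at chr2:32961652-32961726 on the plus strand, carries both, as does Rps6, at chr4:86857353-86857427 on the minus strand. Rpl10a (chr17:28328505-28328579, plus strand) has the word without the tract. Rpl27a (chr7:109519135-109519209, plus) and Rpl39 (chrX:37085208-37085282, minus) have a tract, and Rpl27a also has the word. The genes shown do not represent the block, in which the word occurred in 7 of 60 promoters.
Rpl12: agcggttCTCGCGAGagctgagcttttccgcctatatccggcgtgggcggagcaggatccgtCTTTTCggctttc
Rps6: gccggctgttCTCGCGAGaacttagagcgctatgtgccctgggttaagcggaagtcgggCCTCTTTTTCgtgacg
Rpl10a: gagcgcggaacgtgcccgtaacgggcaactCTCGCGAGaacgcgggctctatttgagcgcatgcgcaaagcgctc
Rpl27a: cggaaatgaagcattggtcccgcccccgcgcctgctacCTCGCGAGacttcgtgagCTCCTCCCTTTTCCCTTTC
Rpl39: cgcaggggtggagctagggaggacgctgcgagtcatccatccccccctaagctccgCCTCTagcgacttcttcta

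Some genes with small differences are shown for contrast. Rpl22l1 (chr3:28805448-28805522, plus strand) has a tract that begins 3 bases after the start base, so a tract was present at both ends of the range. Rpl22 (chr4:152325666-152325740, plus), Rpl24 (chr16:55966215-55966289, plus) and Rpl7l1 (chr17:46782642-46782716, minus) have none that begins within 15 bases of the start. Pyrimidine runs farther from the start were not marked in any of the windows.
Rpl22l1: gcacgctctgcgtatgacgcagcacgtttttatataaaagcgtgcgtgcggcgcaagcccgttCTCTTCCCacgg
Rpl22: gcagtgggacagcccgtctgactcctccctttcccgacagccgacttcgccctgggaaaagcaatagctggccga
Rpl24: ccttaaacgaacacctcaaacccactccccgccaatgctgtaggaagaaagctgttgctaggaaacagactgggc
Rpl7l1: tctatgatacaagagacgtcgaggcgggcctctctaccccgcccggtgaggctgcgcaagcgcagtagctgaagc

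A start window was found for 60 of the 81 genes. A pyrimidine tract began within 15 bases of the RefSeq start in 36 of these 60, or 60%, against 39.5% of 15143 protein-coding genes. RefSeq starts can lie some bases from the start used in these cells, and only 2 of the 60 had the tract begin at the start base itself. The word CTCGCGAG, a palindrome whose length was settled after matches had been seen, occurred in the 300-base promoter (250 bases before the start to 50 after) of 7 of 60, or 11.7%, against 1.39% of all. These 7 were Rpl10a, Rpl12, Rpl26, Rpl27a, Rps6, Rps19 and Rps28. The ETS core CCGGAAG, searched on both strands, occurred in 24 of 60 (40%, against 13.2% of all). The YY1 core AAGATGGC was found in 8.33% against 3.48%, the GC box GGGCGG in 60% against 51.6% and the TATA box TATAAA in 10% against 11.5%, each on both strands. Matches of different words shared bases in 0 of the 60 promoters. The median log2 fold change was 0.26 in the 36 genes with a tract and 0.26 in the 24 without, and 0.29 in the 7 genes with CTCGCGAG against 0.25 in the other 53. A match describes the letters only.

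In ATG7 the ribosomal protein genes lay a little above EYFP as a block, and no single gene passed the test. The fitted log2 fold change was above 0 in 78 of 81 genes (96.3%), where 49.2% of the 19199 genes tested were above 0. Its median over the 81 genes was 0.26, against -0.00365 over all genes. By edgeR's two-sided quasi-likelihood test, with p adjusted over all genes by Benjamini-Hochberg, 0 of the 81 were called (adjusted p from 0.102 to 0.974), where 0.755% of all genes were called and 0.688% were called as higher. At an adjusted p under 0.1 it was also 0 of 81, against 1.43% of all genes. At an unadjusted p under 0.05 there were 48 of 81 (59.3%), all higher in ATG7, against 6.27% of all genes on that side. The 81 genes moved together over the libraries, with 81.6% of their variance on the first principal component. These counts are therefore not separate observations. The DESeq2 Wald test called 7 of the 81, all higher, where it called 3.05% of all genes and 2.12% as higher, and limma-voom called 1, Rpl30, where it called 1.13% of all genes.

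EYFP 2 stood with the ATG7 libraries. The mean log2 CPM over the 81 genes was 7.11, 7.47, 7.18 and 7.12 in the EYFP libraries 1 to 4, against 7.44, 7.37 and 7.59 for ATG7 1 to 3. EYFP 2 lay above 2 of the ATG7 libraries, ATG7 1 and ATG7 2, and the other 3 EYFP libraries were below all of ATG7. Group means were 7.22 ± 0.165 for EYFP and 7.47 ± 0.112 for ATG7. The same order held in shares of the counts: the 81 genes took 1.52%, 1.91%, 1.55% and 1.53% of EYFP 1 to 4, against 1.90%, 1.79% and 2.04% of ATG7 1 to 3. The first principal component over the 81 genes carried 81.6% of their variance, and EYFP 2 scored 1.31 on it, among the ATG7 scores of 1.12, 0.464 and 2.35, while EYFP 1, 3 and 4 scored -1.97, -1.42 and -1.85.

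**Figure D1:**
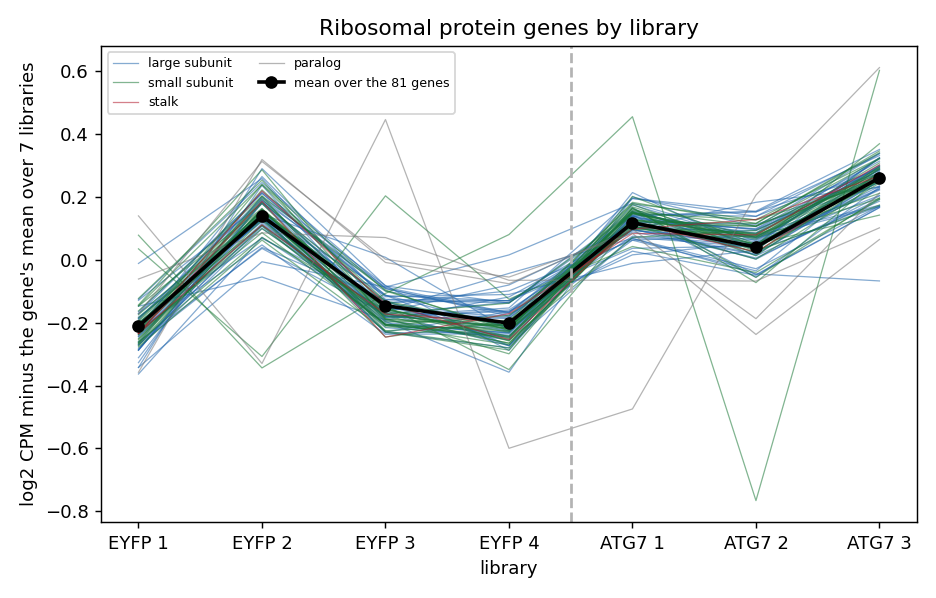
Lines give each of the 81 genes in the 7 libraries as log2 CPM minus the gene's own mean, coloured by subunit, and black points give the mean over the genes. EYFP 2 stands with the ATG7 libraries, ATG7 3 is the highest in 68 of the 81 genes, and 1 small-subunit gene (Rps27a) drops in ATG7 2.

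Gene by gene, ATG7 3 was the highest library in 68 of 81 genes, against 16.2% of all genes tested, and EYFP 1 was the lowest in 43. EYFP 2 was the highest EYFP library in 77 of 81 genes, against 28.8% of all genes tested. It was above the lowest ATG7 library in 68. For this count and for the 43 of EYFP 1 no share over all genes was taken. By Dixon's criterion EYFP 2 stood apart from the other 3, on the high side, in 30 of 81 genes, where 4.93% of all genes had an EYFP library that stood apart. All 3 ATG7 libraries lay above EYFP 1, 3 and 4 in 73 of 81 genes (8.35% of all genes), a split seen after the values were known. The groups as labelled did not overlap in 12 genes, each higher in ATG7, against 6.33% of all genes on that side. They included Rpl10, Rpl10a, Rpl12, Rpl13a, Rpl23a, Rpl27a, Rpl30, Rpl32, Rpl34, Rps12 and Rps24.

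The number of calls by edgeR changed with EYFP 2. Without EYFP 2 the median log2 fold change was 0.35 and 10 of 81 genes passed, all higher in ATG7 (edgeR, where 0.499% of all genes then passed and 0.452% passed as higher). They included Rpl12, Rpl23a, Rpl27a, Rpl30, Rpl32, Rpl39, Rps15a and Rps24, and adjusted p over the 10 lay between 0.0378 and 0.0489. Without EYFP 3, the library that went against its sex label, the median was 0.23 and 0 passed. An unadjusted p under 0.05 was then seen in 26 of 81 genes, against 2301 of all 18825 genes tested. Leaving out any of the other 5 libraries also left 0 calls, and the median lay between 0.19 (without ATG7 3) and 0.30 (without ATG7 2). The choroid plexus list summed to 55394, 73062, 57125 and 66513 CPM over EYFP 1 to 4 and to 61820, 46965 and 55654 CPM over ATG7 1 to 3. It was highest in EYFP 2 and lowest in ATG7 2. EYFP 4, with low ribosomal protein mRNA, was second, and ATG7 3, with the most, was below ATG7 1. All 10 choroid plexus genes were below 0 in the fit, so the list differed along with the group. The part of this list in the difference of the ribosomal protein genes was not tested. With the choroid plexus score as a covariate the median was 0.38, 0 of 81 passed (14 of 19199 genes did) and 71 had an unadjusted p under 0.05 (1659 of 19199).

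**Figure D2:**
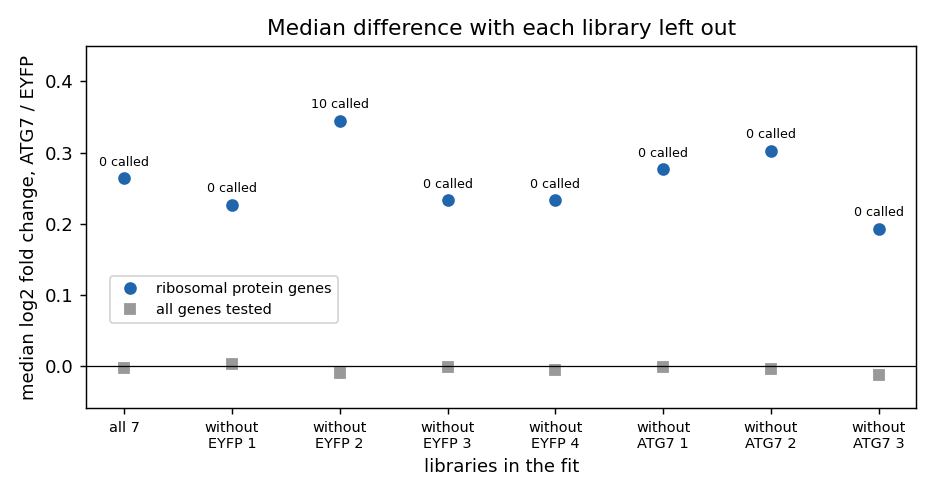
Blue points give the median log2 fold change of the 81 genes (y axis) in a fit with all 7 libraries and with each library left out (x axis), with the number of genes called beside each point, and grey squares give the median of all genes tested. The blue median runs from 0.19 to 0.35, the grey one stays near 0, and genes are called only without EYFP 2.

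Among proteins of the large subunit, the gene with the largest difference was Rpl12 (ENSMUSG00000038900, chromosome 2, 32961559 to 32965345 in GRCm38), which encodes a protein at the base of the stalk. It was at 151.5, 182.6, 149.9 and 150.1 CPM over EYFP 1 to 4 and at 194.8, 196.7 and 225.4 CPM over ATG7 1 to 3. The groups did not overlap, with EYFP 2 nearest to ATG7. The log2 fold change was 0.38 ± 0.0930 (edgeR adjusted p = 0.116, DESeq2 Wald test adjusted p = 0.0128).

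Rpl30 (ENSMUSG00000058600, chromosome 15, 34440505 to 34443640), another large-subunit gene, had the smallest p of the 81. It was at 132.6, 162.9, 141.0 and 135.7 CPM in EYFP and at 181.9, 174.9 and 194.2 CPM in ATG7, again without overlap. Its log2 fold change was 0.36 ± 0.0860 (edgeR adjusted p = 0.102, DESeq2 Wald test adjusted p = 0.00862). Rpl10a (chromosome 17, 28328471 to 28331033) was the member whose EYFP libraries lay closest together among the named genes, at 202.8, 216.3, 196.7 and 207.0 CPM, against 240.4, 255.0 and 263.6 CPM in ATG7. Its EYFP 2 value was only slightly above the others, unlike most of the block. The log2 fold change was 0.30 ± 0.0723 (edgeR adjusted p = 0.107, DESeq2 Wald test adjusted p = 0.00175). Whether Rpl10a and Rpl30 are called thus depends on the method.

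Rpl23a, which lies at the exit of the peptide tunnel, had 119.8 ± 14.95 CPM on average in EYFP and 153.4 ± 6.66 CPM in ATG7. Rpl27a had 244.8 ± 31.7 and 313.6 ± 23.9 CPM, and Rpl32 178.5 ± 25.4 and 228.5 ± 18.3 CPM. Rpl34 ran from 110.6 to 134.2 CPM in EYFP and from 136.5 to 155.9 CPM in ATG7. In these 4 genes the groups did not overlap and the log2 fold changes were 0.36, 0.36, 0.36 and 0.28, none passing by edgeR. The DESeq2 Wald test called Rpl23a and Rpl27a (adjusted p = 0.0364 and 0.0451), but not Rpl32 or Rpl34 (0.0674 and 0.106). Over the 43 large-subunit genes the median log2 fold change was 0.25, with 42 above 0 (49.2% of all genes were). Of them 24 had an unadjusted p under 0.05, each higher in ATG7 (6.27% of all genes). In 9 of the 43 (20.9%) the groups did not overlap, against 6.33% of all genes on that side.

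Rpl5 and Rpl11 join the 5S rRNA in a particle that, when free, binds Mdm2 and so holds back the breakdown of the tumour suppressor Trp53. Rpl5 was at 351.6, 456.6, 364.7 and 326.5 CPM in EYFP and at 414.3, 405.7 and 460.8 CPM in ATG7. Rpl11 was at 190.7, 248.9, 226.3 and 192.8 CPM in EYFP and at 235.0, 219.7 and 273.7 CPM in ATG7. The groups overlapped in both genes, and the log2 fold changes of 0.19 and 0.18 were below the median of the block (edgeR adjusted p = 0.571 and 0.597). Without EYFP 2 Rpl5 was at 0.29, and without ATG7 3 at 0.12. Rpl11 was at 0.08 without ATG7 3, and across the libraries left out it reached 0.25 (without EYFP 2).

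Among small-subunit genes, Rps24 (ENSMUSG00000025290, chromosome 14, 24487125 to 24496959) was at 287.2, 357.9, 292.7 and 283.4 CPM in EYFP and 373.6, 368.3 and 421.8 CPM in ATG7. The groups did not overlap, with EYFP 2 close below ATG7 2. The log2 fold change was 0.35 ± 0.0996 (edgeR adjusted p = 0.178, DESeq2 Wald test adjusted p = 0.0390). Rps12 was at 171.1 ± 20.7 CPM in EYFP against 215.6 ± 19.6 CPM in ATG7, also without overlap. Over the 31 small-subunit genes the median log2 fold change was 0.27 and all 31 were above 0 (49.2% of all genes). Of them 22 had an unadjusted p under 0.05, each higher in ATG7 (6.27% of all genes). In 3 of the 31 (9.68%) the groups did not overlap, not far from the 6.33% of all genes on that side.

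Rps6, the small-subunit protein that the S6 kinases phosphorylate downstream of mTORC1, was at 294.1, 382.2, 303.2 and 310.0 CPM in EYFP and at 382.6, 369.9 and 433.9 CPM in ATG7. EYFP 2 lay above ATG7 2, so the groups overlapped. The log2 fold change was 0.29 ± 0.105 (edgeR adjusted p = 0.285).

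The stalk genes Rplp0, Rplp1 and Rplp2 encode the acidic arm of the large subunit that calls in elongation factors. Rplp0 was at 355.3, 451.4, 370.6 and 364.2 CPM in EYFP and 447.2, 456.7 and 502.8 CPM in ATG7. Only EYFP 2 reached into the ATG7 range. Rplp1 had 412.0 ± 66.7 CPM in EYFP against 482.8 ± 41.1 CPM in ATG7, and Rplp2 165.1 ± 24.9 and 198.3 ± 17.9 CPM. Their log2 fold changes were 0.28, 0.23 and 0.26 (edgeR adjusted p = 0.274, 0.498 and 0.383).

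**Figure D3:**
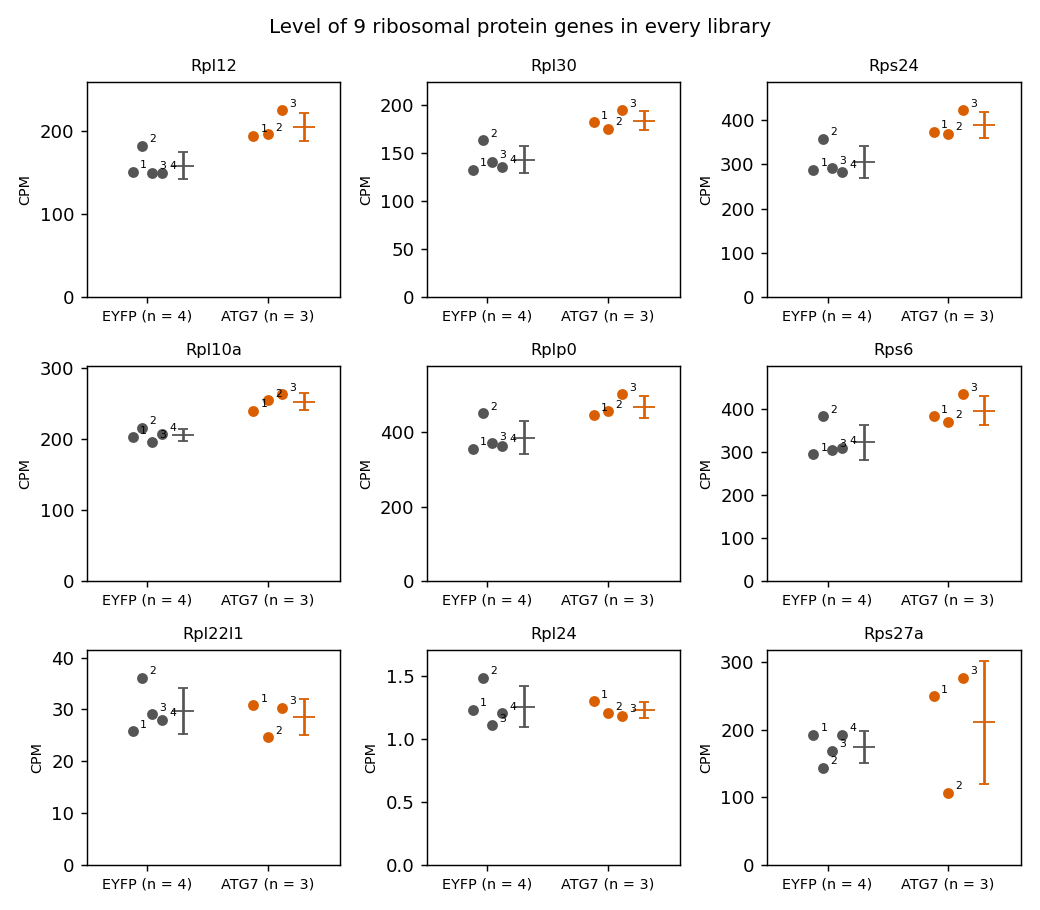
CPM (y axis, from 0) of 9 ribosomal protein genes in each EYFP and ATG7 library, with the replicate number beside each point and the group mean ± SD to the right. Rpl12, Rpl30, Rps24 and Rpl10a do not overlap between groups, EYFP 2 enters the ATG7 range in Rplp0 and Rps6, and Rpl22l1, Rpl24 and Rps27a show no separation.

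**Figure D4:**
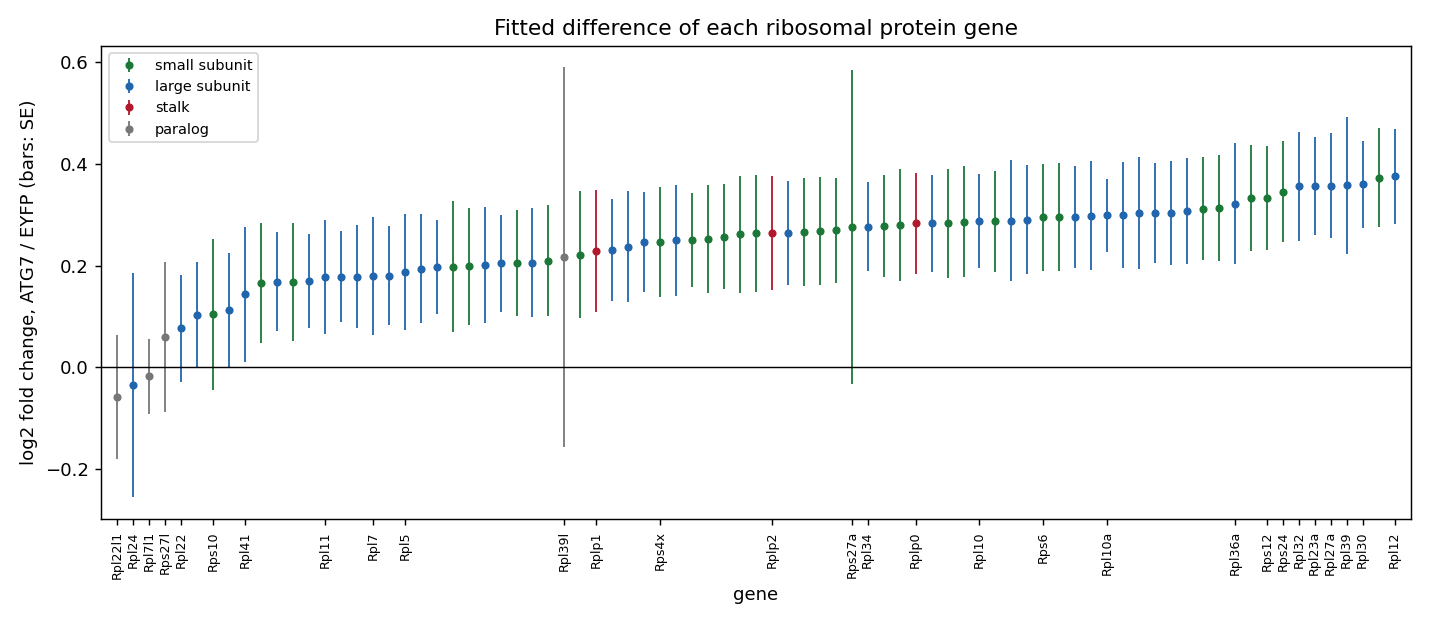
Fitted log2 fold change of each of the 81 genes (ATG7 over EYFP, y axis) with its SE as bars, ordered by size and coloured by subunit, with names under some of the genes the text describes. Values run from -0.06 (Rpl22l1) to 0.38 (Rpl12), 3 genes lie below 0, and the longest bars belong to Rpl39l and Rps27a.

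Each of the 4 paralogs had a lower fitted difference than the gene it is a copy of, and Rpl39l was hardly detected. Rpl22l1, a copy of Rpl22, was at 25.8, 36.0, 29.0 and 27.9 CPM in EYFP and 30.8, 24.6 and 30.3 CPM in ATG7, with a log2 fold change of -0.06 ± 0.122. Rpl22 itself had 127.5 ± 17.9 CPM in EYFP against 134.5 ± 10.3 CPM in ATG7, and its log2 fold change, 0.08, was the lowest of the canonical genes after Rpl24. Rps27l, a copy of Rps27 that is induced by Trp53, had 43.6 ± 8.49 and 45.5 ± 6.30 CPM and a log2 fold change of 0.06, against 0.20 for Rps27. Rpl7l1, whose protein acts in ribosome assembly, had 81.9 ± 4.65 and 80.97 ± 5.54 CPM and a log2 fold change of -0.02, against 0.18 for Rpl7. Rpl39l was at 0.510 ± 0.164 and 0.590 ± 0.211 CPM, against 133.2 ± 27.2 and 170.8 ± 13.9 CPM for Rpl39, with log2 fold changes of 0.22 and 0.36. The groups overlapped in all 4 paralogs, none passed the test, and the difference between paralogs and their parent genes was not tested.

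The 2 genes below the count minimum were also paralogs. Rpl10l had 0 counts in all 7 libraries, which allows up to 3 counts, or 0.0543 to 0.0835 CPM, per library (counting error only). Rpl3l, known from heart and skeletal muscle, had 1, 6, 14 and 4 counts in EYFP and 3, 7 and 3 counts in ATG7. Rps4l, annotated as a pseudogene and so no member, was at 14.6 ± 1.66 CPM in EYFP against 14.5 ± 2.39 CPM in ATG7.

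A few members followed the block less closely than the rest. Over the 7 libraries the SD of log2 CPM around the mean of the 81 genes had a median of 0.0540 per gene and was above 0.15 in 7 genes. They were Rps27a at 0.462, Rpl39l at 0.440, Rps10 at 0.259, Rpl24 at 0.180, Rpl22l1 at 0.179, Rpl7l1 at 0.164 and Rps27l at 0.154. All 4 paralogs are thus among these 7. Counts were low for Rpl39l (14 to 37 per library) and Rpl24 (45 to 68 per library), so counting error adds to their SD. How much it adds was not tested. The log2 fold change of Rpl24 was -0.03 ± 0.221. Rps27a, made as a fusion with ubiquitin, was at 192.6, 143.7, 169.4 and 192.8 CPM in EYFP and at 250.1, 107.2 and 277.0 CPM in ATG7. It was lowest in ATG7 2, and within EYFP it was lowest in EYFP 2, where nearly all other members were highest. Its log2 fold change was 0.28 ± 0.309 (edgeR adjusted p = 0.8003). It was 0.59 without ATG7 2, 0.19 without EYFP 2, 0.14 without ATG7 1 and 0.03 without ATG7 3.

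Levels per kilobase of annotated exon (all exons of a gene merged) ranged widely. The merged length itself ran from 383 bases (Rpl36) to 6270 bases (Rps15a), and its part in this range was not tested. In EYFP the median over the 81 genes was 91.2 CPM per kilobase. The highest were Rplp1 at 825.6 ± 133.8, Rps15 at 377.2 ± 49.5, Rps3a1 at 363.8 ± 50.01, Rpl41 at 330.1 ± 62.7 and Rps29 at 328.4 ± 58.3 CPM per kilobase. Apart from Rplp1, the neighbours in this order did not differ beyond their SD. The lowest were Rpl39l at 0.614 ± 0.197, Rpl24 at 1.22 ± 0.155, Rps10 at 2.84 ± 0.428, Rpl13a at 5.53 ± 0.6001 and Rpl22l1 at 14.9 ± 2.24 CPM per kilobase. Among canonical genes the highest was 677-fold above the lowest, Rpl24.

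Many ribosomal protein genes have near-identical copies in the genome, and how shared reads were counted is not given in the sources used here, so these levels are uncertain. Of the 81 genes, 75 had at least 1 word of 100 bases that also occurs in an annotated transcript of another gene, and the median share of such words was 26.0%. The share was 80.1% for Rpl24, 33.0% for Rpl13a and 22.3% for Rps10, which shares sequence with the annotated read-through gene RPS10-NUDT3. It was also 83.6% for Rps6 and 82.7% for Rpl5, which were abundant. The part of shared sequence in the low levels was not tested. In the 20 genes with under 10% of shared words the median log2 fold change was 0.25, against 0.26 in the other 61, and 0 passed in either set. Annotated ribosomal protein pseudogenes (symbols ending in -ps and a number) took 0.0327% to 0.0420% of the counts in EYFP and 0.0401% to 0.0445% in ATG7. Of the 82 pseudogenes tested, 64 were above 0 with a median log2 fold change of 0.20, and none passed (edgeR). In either direction, 11 of the 82 had an unadjusted p under 0.05, a similar share to the 2300 of all 19199 genes tested.

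The members lie on 19 chromosomes, 14 of them on chromosome 7 and 4 on the X chromosome. The X-linked genes were Rpl10, Rpl36a, Rpl39 and Rps4x, and they were examined because of the sex-linked transcripts of EYFP 3. Rps4x was at 344.1, 434.2, 346.8 and 325.2 CPM in EYFP and 408.1, 414.4 and 468.0 CPM in ATG7. EYFP 3 lay inside the range of the other EYFP libraries. The log2 fold changes were 0.29 for Rpl10, 0.32 for Rpl36a, 0.36 for Rpl39 and 0.25 for Rps4x, and none passed.

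Ribosomal proteins whose symbol the rule does not match were read beside the members. Of the 4 tested, 3 were above 0 and 1 below, with a median log2 fold change of 0.28, and 0 passed (edgeR). Fau, which carries a ribosomal protein fused to a ubiquitin-like one, was at 258.8, 345.0, 260.7 and 264.8 CPM in EYFP and 341.3, 344.0 and 382.1 CPM in ATG7, the shape of the block. Rack1, a scaffold on the small subunit, had 295.9 ± 33.0 CPM in EYFP against 345.2 ± 19.3 CPM in ATG7. The gene below 0 was Rpl36al, which was low, at 1.36 ± 0.273 CPM in EYFP against 1.07 ± 0.216 CPM in ATG7. Its log2 fold change was -0.34 ± 0.255, and its groups overlapped.

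The other mRNAs with a TOP tract were read from a list of 15. Of these, 14 were above 0, with a median log2 fold change of 0.19, none passed (edgeR) and 6 had an unadjusted p under 0.05. Eif3f, a subunit of an initiation factor, had the smallest p, at 116.6 ± 9.47 CPM in EYFP against 149.4 ± 10.03 CPM in ATG7, with a log2 fold change of 0.36 (edgeR adjusted p = 0.0906). The most abundant, the elongation factor Eef1a1, picked out after its values were seen, was at 3053, 4005, 3126 and 3214 CPM in EYFP and 3694, 3766 and 4095 CPM in ATG7. EYFP 2 was again within the ATG7 range.

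The remaining lists of protein synthesis genes had smaller medians, with more genes above 0 than below, and their difference from the ribosomal protein genes was not tested. The 26 other initiation factors had a median log2 fold change of 0.03, with 18 above 0 and Eif4a2 first by p (0.16, edgeR adjusted p = 0.475). The 30 factors of ribosome assembly had 0.06, with 22 above 0 and Heatr1 first (0.20, adjusted p = 0.404). The 14 genes of RNA polymerase I tested had 0.02, with 8 above 0 and Polr1b first (0.19, adjusted p = 0.513). The 5 chaperones and assembly factors of single ribosomal proteins had 0.04, with 3 above 0 and Rrs1 first (0.13, adjusted p = 0.610). None of these genes passed in any of the 4 lists, and 1, Heatr1, had an unadjusted p under 0.05.

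Among 21 genes of the mTOR pathway, TOP-binding proteins and Myc factors the median log2 fold change was 0.02, with 0 passing and 2 at an unadjusted p under 0.05. Mycl, a Myc family factor, had the smallest p and was lower in ATG7, at 25.1 ± 5.93 CPM in EYFP against 16.5 ± 0.682 CPM in ATG7, with a log2 fold change of -0.61 (edgeR adjusted p = 0.122). Of 8 genes of the Trp53 pathway 1 passed. Cdkn1a, the cell cycle inhibitor induced by Trp53, rose from 35.7, 24.7, 27.6 and 25.6 CPM in EYFP to 47.5, 51.02 and 49.2 CPM in ATG7. Its log2 fold change was 0.80 ± 0.115 (edgeR adjusted p = 0.0133), and the median of the list was 0.16. The call was lost without EYFP 4 (edgeR adjusted p = 0.0583), without ATG7 2 (0.0714) or without ATG7 3 (0.0832), and with the choroid plexus covariate (0.0644), with the log2 fold change at 0.75, 0.77, 0.79 and 0.62. The mitochondrial ribosomal proteins, a list added after the values of the cytosolic ones were seen, had 39 of 77 genes above 0, a median of 0.00, 0 passing and 2 at an unadjusted p under 0.05.

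**Figure D5:**
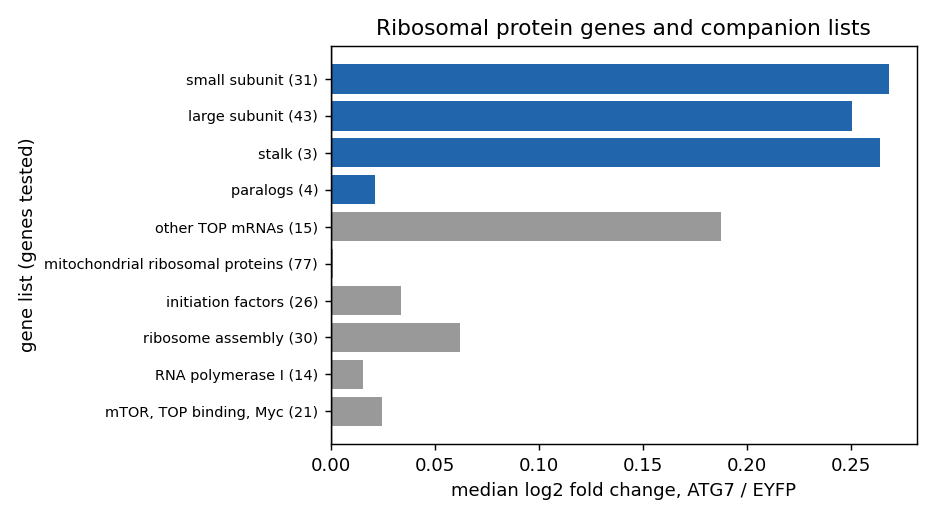
Bars give the median log2 fold change (ATG7 over EYFP) of the ribosomal protein genes by subunit (blue) and of companion lists (grey), with the number of genes tested in parentheses. The subunits and stalk lie between 0.25 and 0.27, the paralogs at 0.02, the other TOP mRNAs at 0.19 and the other lists drawn between 0.00 and 0.06.

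Markers of other cells are given beside these differences. The endothelial and mural list (8 genes) summed to 765.8, 760.8, 657.5 and 453.6 CPM over EYFP 1 to 4 and to 814.9, 587.8 and 1039 CPM over ATG7 1 to 3, highest in ATG7 3, as the ribosomal protein genes were, and 8 of 8 were above 0 in the fit. The lymphocyte list (8 genes) was at 7.21 to 12.1 CPM in EYFP and 11.5 to 20.9 CPM in ATG7, also highest in ATG7 3. Of its 6 genes tested, 5 were above 0, with a median log2 fold change of 1.44, and 0 passed (edgeR). The immediate-early genes that dissociation induces (10 genes) were at 1997 to 3331 CPM in EYFP and 2805 to 2968 CPM in ATG7, with 10 of 10 above 0. The choroid plexus list had 0 of 10 above 0. The interferon-response list (14 genes) was at 264.1 to 521.3 CPM in EYFP and 791.9 to 1093 CPM in ATG7, without overlap, and 7 of its genes rose (edgeR). The neuron list (10 genes) was at 45.7 to 71.5 CPM in EYFP and 50.6 to 53.6 CPM in ATG7, with 1 of 10 above 0. The astrocyte list (8 genes) was at 427.7 to 808.4 and 484.0 to 588.1 CPM, with 3 of 8 above 0. The oligodendrocyte list (8 genes) was at 227.2 to 496.6 and 250.2 to 358.6 CPM, with 1 of 8 above 0. Border and blood myeloid markers (9 genes) were at 457.7 to 567.4 and 473.8 to 627.3 CPM, with 5 of 9 above 0. Red cell markers (5 genes) were at 0.908 to 6.93 and 0.655 to 5.89 CPM, with 1 of 5 above 0. None of these markers was at 0 in all libraries, and their part in the difference of the ribosomal protein genes was not tested.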

How the data were processed

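The authors deposited raw counts per gene, with 55401 Ensembl identifiers and 1 column for each of 7 libraries. Per the submitters' processing notes, fastp 0.20.1, HISAT2 2.0.5 and featureCounts were used on mm10 (GRCm38). Strand setting, annotation release and handling of shared reads are not given in the sources used here. All columns matched a library by name. Symbols, positions and exon lengths came from GENCODE M21 (55141 identifiers matched) and start windows from RefSeq (GRCm38.p6), taking the start nearest to that of the principal transcript.

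ATG7 was compared with EYFP in edgeR 4.0.16 (R 4.3.3; quasi-likelihood F test), on all 7 libraries without covariates, after TMM scaling and filterByExpr (19199 genes left). Adjusted p under 0.05 (Benjamini-Hochberg, all genes) was the threshold. SE is the absolute log2 fold change over the square root of F. Log2 CPM used a prior count of 2. DESeq2 1.42.0, limma-voom (limma 3.58.1), other scalings and filters, a replicate block, GC and length offsets and a choroid plexus covariate were alternatives. Pairs of libraries within a group differed by more than counting noise (chi-square per degree of freedom from 19.2 to 41.3), so none was treated as a library deposited more than once. This does not show that they came from separate mice. Precision is limited by 7 libraries, and floors of 3 counts cover counting error only.

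The members and lists were chosen with earlier results of these data known. Named genes are those called, the 5 highest and 5 lowest by log2 fold change and by CPM per kilobase, the stalk genes, Rpl5, Rpl11, Rps6, Rps27a, paralogs with their parent genes, X-linked members, up to 10 members without overlap by p, and the first gene by p (or up to 3 called) of each companion list. Other named genes were chosen after their values were seen. Values of some genes that the rule names are not reported here, though counts and medians include them.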

Additional observations from a re-analysis of the deposited data

Results flagged for a closer look

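Of 37 results checked within the 4 EYFP libraries, 8 had a library far from the others by Dixon's criterion, where chance gives about 1 in 20. In each of them the library was EYFP 2, and it was high. The 81 genes took 1.91% of the counts in EYFP 2, against 1.52% to 1.55% in the other EYFP libraries.

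Among the stalk genes, Rplp0 was at 451.4 CPM in EYFP 2 against 355.3 to 370.6 CPM in the others, and Rplp2 at 202.1 against 149.7 to 157.7 CPM. Among large-subunit genes, Rpl12 was at 182.6 CPM against 149.9 to 151.5 CPM. Rpl27a was at 291.9 against 225.0 to 235.1 CPM, and Rpl32 at 216.4 against 162.6 to 168.3 CPM. Among small-subunit genes, Rps15 was at 284.1 against 217.4 to 226.4 CPM and Rps24 at 357.9 against 283.4 to 292.7 CPM. These genes move together, so the 8 values are not separate observations.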

How the results depend on the processing

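The number of ribosomal protein genes called, 0 with all libraries, was 3 with no filter on low counts (Rpl12 and Rpl30 among them, with 297 of 33007 genes called), 7 with DESeq2 and 1 with limma-voom. With each library left out it ranged from 0 to 10. It was 0 under the other scalings, offsets and definitions of the members and at an adjusted p under 0.1. The median log2 fold change of the block stayed above 0 in each setting tried, from 0.19 to 0.35 with each library left out. The number of genes without overlap, 12, ranged from 10 to 73 with each library left out, where 14.0% to 21.2% of all genes did not overlap. It was 73 without EYFP 2 (15.2% of all genes) and 31 without ATG7 2 (17.8%). Without each of the other 5 it was 10 to 13 of 81, with shares of all genes from 14.0% to 21.2%.

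Same-numbered libraries did not deviate together (correlations of -0.06, -0.18 and 0.07 across genes for numbers 1, 2 and 3), so the numbers were not taken as pairs. With the replicate block, 0 of 81 genes and 0 of all genes passed. An unadjusted p under 0.05 was seen in 9 of 81, against 1256 of all 19199 genes tested. The median was 0.24 and the mean difference in log2 CPM was 0.21. The differences by number were 0.33, -0.10 and 0.41. With the block and the GC and length offset, the median was 0.21, and that of the mTOR list was 0.0688. Cdkn1a was not called with the block (0.76, edgeR adjusted p = 0.223).

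Some genes and lists changed sign or moved. Rpl24 was 0.0104 with limma-voom. With the choroid plexus covariate Rpl22l1 was 0.14, Rpl24 0.11, Rpl39l -0.25 and Rps10 -0.0392, and the medians of the chaperone and mitochondrial lists were -0.00974 and 0.10. With each library left out, Rpl22l1 ranged from -0.12 to 0.0447, Rpl24 from -0.10 to 0.0520, Rpl7l1 from -0.0814 to 0.0124, Rps27l from -0.0389 to 0.18 and Rpl39l from -0.0582 to 0.45. The chaperone median ranged from 0.00421 to 0.104 and the mTOR median from 0.00476 to 0.0558. The cause was not tested.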
